A study of Homo sapiens with 6 samples.

Results

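The genes described here are 9 genes of the extracellular matrix, picked by name from a table of 17222 genes: *SPARC*, *THBS1* and *TNC*, which encode matricellular proteins, *CCDC80*, *FN1* and *FBN1*, which encode structural glycoproteins, *ANTXR1*, which encodes a cell-surface receptor, and *LOX* and *LOXL2*, which encode cross-linking enzymes. All 9 had a row in the table and passed the filter on low counts. RNA was sequenced from H226, an established line of human squamous lung carcinoma cells, 48 h after transient transfection with a control antisense oligonucleotide (ASO_CTRL, 3 libraries) or with ASO_LINC#3, directed against the lncRNA *SWINGN* (LINC00565 in the series' design; ASO_LINC, 3 libraries). The study's methods describe RNA-seq after *SWINGN* depletion for BJ cells, whereas its results and the labels of these libraries name H226, which is followed here. Both groups were transfected, and the knockdown rests on 1 oligonucleotide in 1 cell line. The study's reporting summary gives its experiments as biological triplicates unless a legend says otherwise, without naming these libraries. The labels do not say whether the replicates were separate cultures, so the p-values measure the spread between these libraries. The *SWINGN* transcript was not analysed here, so its depletion was not checked in these libraries.

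Matricellular proteins are secreted into the matrix but serve less as scaffold than as modulators of how cells attach to it. SPARC binds collagens and loosens adhesion, thrombospondin-1 and tenascin-C bind matrix and cell-surface receptors, and fibronectin and fibrillin form the fibrils to which cells and growth factors attach. Lysyl oxidases oxidise lysine residues of collagen and elastin, which lets the fibres cross-link. Several of these genes are known for high expression in fibroblasts and in mesenchymal tumour cells, and *LOX* is a known target of hypoxia-inducible factors.

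Reads counted on genes ranged from 3686828 to 10546786 per library, and ASO_LINC replicate 3 had the fewest. Of 8 squamous markers, 3 were listed in the table, *KRT5*, *DSC3* and *KRT6A*. Their summed level was 132 to 162 counts per 1000000 reads (CPM) in ASO_CTRL and 90.2 to 97.3 CPM in ASO_LINC. *KRT5* and *DSC3* were lower in ASO_LINC without overlap. *KRT6A*, which did not pass the filter on low counts, went the other way. It had 0, 0 and 1 reads in ASO_CTRL and 14, 5 and 4 reads in ASO_LINC. *TP63*, *KRT14*, *SOX2*, *DSG3* and *PKP1* were not analysed here. The 3 listed epithelial markers, all keratins, had a sum of 8084 to 8465 CPM in ASO_CTRL and of 4923 to 8665 CPM in ASO_LINC, the highest value being that of ASO_LINC replicate 3, and *EPCAM* and *CDH1* were not analysed here. All 5 mesothelial markers were listed, with a sum of 778 to 973 CPM in ASO_CTRL and 253 to 371 CPM in ASO_LINC. That sum was carried mainly by *CALB2* (601 and 154 CPM on average). *LRRN4* went from 143 to 47.6 CPM and *UPK3B* from 49.4 to 26.4 CPM, also without overlap. *CALB2* and *LRRN4* were called and *UPK3B* was not. *MSLN* was at 29.1 and 31.1 CPM and *WT1* at 46.0 and 36.6 CPM, neither of them called. Of 6 fibroblast markers only *COL1A1* and *PDGFRB* were listed, together at 271 to 386 CPM in ASO_CTRL and 125 to 141 CPM in ASO_LINC. Of 4 endothelial markers only *KDR* was listed, at 6.96 to 7.95 CPM in ASO_CTRL and 2.17 to 3.59 CPM in ASO_LINC, and of 4 leukocyte markers only *CD68*, at 1.08 to 1.89 CPM and 2.79 to 6.51 CPM. The summed squamous, mesothelial and fibroblast levels and *KDR* were lower in ASO_LINC and *CD68* was higher, all without overlap. Such separation held for 36.1% of all tested genes, so it is given as a description. *SPARC*, *CCDC80* and *ANTXR1* were lower in the same libraries, and the part of these markers in the results below was not tested. In these bulk libraries, fewer cells of a type and less RNA per cell cannot be told apart.

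The members past both thresholds of the study (below) were *SPARC*, *CCDC80*, *ANTXR1* and *LOX*. The 250 bases before their most upstream RefSeq start (GRCh38.p14) are shown because 3 of these genes were lower and *LOX* was higher in the same libraries. These windows are *SPARC* at chr5:151686916-151687165 on the minus strand, *CCDC80* at chr3:112641144-112641393 on the minus strand, *ANTXR1* at chr2:69012894-69013143 on the plus strand and *LOX* at chr5:122078260-122078509 on the minus strand. Capitals mark matches, on either strand, to the core of the hypoxia response element (ACGTG), the GC box (GGGCGG) and the TATA box (TATAAA).
SPARC: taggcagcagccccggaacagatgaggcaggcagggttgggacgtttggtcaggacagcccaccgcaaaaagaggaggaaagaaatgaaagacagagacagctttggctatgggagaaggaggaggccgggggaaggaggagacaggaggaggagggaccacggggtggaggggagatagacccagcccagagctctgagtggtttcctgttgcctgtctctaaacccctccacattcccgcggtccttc
CCDC80: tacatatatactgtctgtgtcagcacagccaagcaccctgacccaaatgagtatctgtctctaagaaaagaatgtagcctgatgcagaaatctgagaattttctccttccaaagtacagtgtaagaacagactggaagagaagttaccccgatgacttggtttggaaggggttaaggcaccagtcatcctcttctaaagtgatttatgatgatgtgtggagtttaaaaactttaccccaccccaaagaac
ANTXR1: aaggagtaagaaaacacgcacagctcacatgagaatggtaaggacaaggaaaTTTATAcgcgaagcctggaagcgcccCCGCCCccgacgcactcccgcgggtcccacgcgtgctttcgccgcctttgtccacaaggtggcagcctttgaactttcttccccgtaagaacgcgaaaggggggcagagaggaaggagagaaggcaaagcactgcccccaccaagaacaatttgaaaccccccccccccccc
LOX: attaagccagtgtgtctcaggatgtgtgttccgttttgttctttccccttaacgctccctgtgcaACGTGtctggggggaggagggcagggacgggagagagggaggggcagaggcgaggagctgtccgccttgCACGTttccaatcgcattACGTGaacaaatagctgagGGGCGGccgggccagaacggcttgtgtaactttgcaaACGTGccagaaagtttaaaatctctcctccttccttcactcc
In the *LOX* window ACGTG matched 4 times, at 185, 116, 98 and 42 bases before the start, with a GC box at 79 bases. RefSeq gives *LOX* other, more downstream starts, whose windows overlapped and shared 1 ACGTG match. The windows of *SPARC* and *CCDC80* held no match to any of these motifs, and that of *ANTXR1* held 1 GC box and 1 TATA box. Of the 8 members with a promoter in the RefSeq table, *LOX* was the 1 with an ACGTG match, and 0 matched the AP-1 motif TGANTCA. Among all 35116 windows of this length, 18.5% held at least 1 ACGTG, 0.669% held 4 or more, 42.6% held a GC box, 10.7% a TATA box and 6.57% an AP-1 match. The cut of 4 equals the number of matches in the *LOX* window, so its share is a description and not a test. A match here is a stretch of letters and not a measured binding site.

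All values below are CPM after scaling by edgeR's TMM method, and changes are log2 fold changes of ASO_LINC over ASO_CTRL from edgeR's quasi-likelihood fit over 14660 genes. Following the study's methods, calls required both an adjusted p below 0.01 and more than 0.5 log2 units of change in either direction. Past both were 4 of the 9 members, 3 lower and 1 higher, where 7.54% of all tested genes were past them, 2.63% lower and 4.91% higher. ASO_LINC and ASO_CTRL libraries separated completely in CPM for 5 members, 3 lower and 2 higher, which held for 36.1% of all tested genes. The 9 genes were chosen with the changes in these libraries already known, so their changes are given as a description, without p-values, and nothing is read from these counts.

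**Figure D1:**
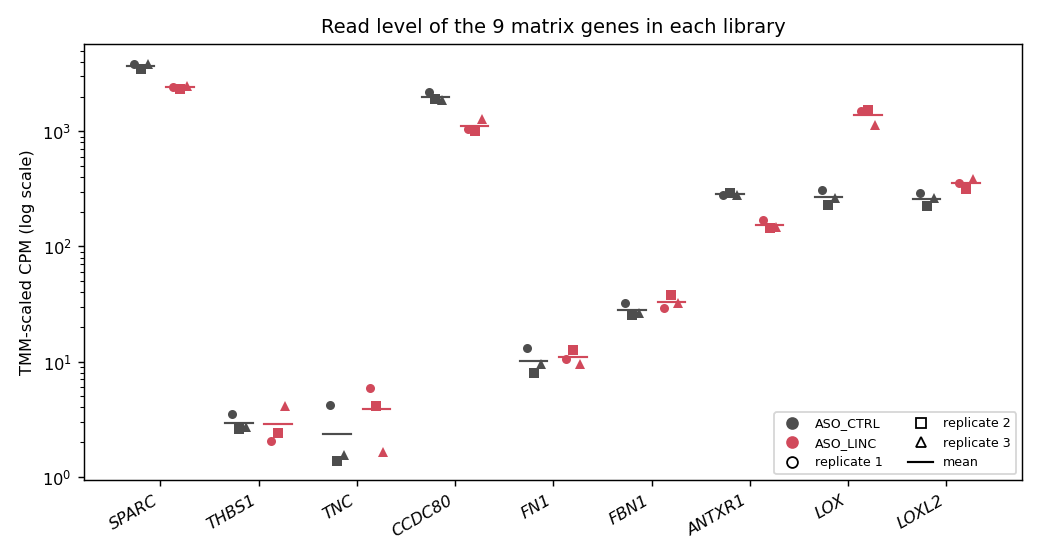
TMM-scaled CPM on a log axis for each of the 6 libraries, with ASO_CTRL in grey, ASO_LINC in red, a marker shape for each replicate and a bar at each mean. The libraries of the conditions separate for *SPARC*, *CCDC80*, *ANTXR1*, *LOX* and *LOXL2* and overlap for *THBS1*, *TNC*, *FN1* and *FBN1*.

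*SPARC*, a minus-strand gene of chromosome 5 (GRCh37, 151040657 to 151066536), was lower in every ASO_LINC library. Its level was 3817, 3488 and 3860 CPM in ASO_CTRL replicates 1, 2 and 3 and 2418, 2331 and 2483 CPM in ASO_LINC replicates 1, 2 and 3. Every ASO_LINC library lay below every ASO_CTRL library, and the means were 3722 ± 204 and 2411 ± 76.2 CPM (SD, n = 3 each), 35.2% below control. Its fitted log2 fold change was −0.63 (standard error, SE, 0.11), with −0.62, −0.67 and −0.58 in the 3 ASO_LINC libraries. The spread between the ASO_LINC libraries was thus small beside the change, yet leaving out 1 library at a time kept the gene past the thresholds in 2 of 6 fits, and it lost the call when replicate 1 or 3 of ASO_CTRL, or 1 or 2 of ASO_LINC, was absent. Over the 6 fits the log2 fold change stayed between −0.66 and −0.60.

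The other matricellular members, *THBS1* (chromosome 15, 39873280 to 39891667, plus strand) and *TNC* (chromosome 9, 117781854 to 117880486, minus strand), were close to the floor of detection. *THBS1*, whose protein binds CD47 and activates latent TGF-beta, had 26, 15 and 28 reads in the ASO_CTRL libraries and 14, 14 and 15 reads in the ASO_LINC libraries, or 2.92 ± 0.51 and 2.84 ± 1.08 CPM (SD, n = 3 each). The conditions overlapped, and its log2 fold change was −0.11 (SE 0.33). Without ASO_CTRL replicate 1 the fitted change was 0.04 and without ASO_LINC replicate 1 it was 0.09, so its direction depends on single libraries. *TNC*, the gene of tenascin-C, had 31, 8 and 16 reads in ASO_CTRL and 40, 24 and 6 reads in ASO_LINC. Its replicates differed by more than the conditions did, and the log2 fold change of 0.81 had an SE of 0.49, with values from 0.37 without ASO_LINC replicate 1 to 1.48 without ASO_CTRL replicate 1. Neither gene was past the thresholds, and these counts limit detection to large changes.

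Among the structural glycoproteins, *CCDC80*, which encodes a secreted protein deposited in the matrix, was lower in every ASO_LINC library. The gene occupies 112315644 to 112368377 of chromosome 3 (GRCh37, minus strand). Its level was 2207, 1920 and 1881 CPM in ASO_CTRL and 1055, 999.7 and 1290 CPM in ASO_LINC, means of 2002 ± 178 and 1115 ± 154 CPM (SD, n = 3 each). The groups did not overlap, with the highest ASO_LINC value in replicate 3, the library with the fewest reads. The log2 fold change was −0.85 (SE 0.13), 44.3% below control, with −0.921, −0.998 and −0.631 in the 3 libraries. Like *SPARC*, the gene lost the call when replicate 1 or 3 of ASO_CTRL, or 1 or 2 of ASO_LINC, was absent, over log2 fold changes from −0.96 to −0.77.

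*FN1* (chromosome 2, 216225163 to 216300796, minus strand) and *FBN1* (chromosome 15, 48700510 to 48937918, minus strand) did not separate the conditions. *FN1*, the gene of fibronectin, had 13.1, 7.92 and 9.54 CPM in ASO_CTRL and 10.4, 12.7 and 9.49 CPM in ASO_LINC, a log2 fold change of 0.10 (SE 0.23). The sign turned without ASO_CTRL replicate 2 (−0.03) and without ASO_LINC replicate 2 (−0.03). Only 35 to 100 reads per library were counted on this gene. *FBN1*, which encodes the fibrillin of microfibrils, had 32.5, 25.3 and 26.4 CPM in ASO_CTRL and 29.1, 37.5 and 32.3 CPM in ASO_LINC. Here too the groups overlapped, at 28.1 ± 3.85 and 32.9 ± 4.23 CPM (SD, n = 3 each), a log2 fold change of 0.23 (SE 0.16).

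*ANTXR1*, a membrane receptor that binds collagens and the anthrax toxin, is encoded on the plus strand at 69240308 to 69476459 of chromosome 2 (GRCh37) and was lower in every ASO_LINC library. Its level was 280, 293 and 282 CPM in ASO_CTRL and 168, 144 and 148 CPM in ASO_LINC. The groups did not overlap, and the mean went from 285 ± 7.43 to 153 ± 12.98 CPM (SD, n = 3 each), 46.1% below control. The log2 fold change was −0.89 (SE 0.12), with −0.76, −0.98 and −0.94 in the 3 libraries. The gene was past both thresholds in all 6 fits without 1 library, between −0.96 and −0.85.

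*LOX*, the founding lysyl oxidase gene (GRCh37 chromosome 5, minus strand, 121398890 to 121414108), was the member with the largest change. It had 309, 231 and 261 CPM in ASO_CTRL and 1488, 1541 and 1141 CPM in ASO_LINC, so that the lowest ASO_LINC library was far above the highest control. The means were 267 ± 39.4 and 1390 ± 217 CPM (SD, n = 3 each), a 5.21-fold higher level and a log2 fold change of 2.38 (SE 0.16). It was past both thresholds in all 6 fits without 1 library, from 2.29 to 2.50, and the smallest change of a single library was the 2.10 of ASO_LINC replicate 3.

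*LOXL2*, a lysyl oxidase known to act on collagen of basement membranes, changed less. Its level was 291, 226 and 262 CPM in ASO_CTRL and 356, 318 and 385 CPM in ASO_LINC. The groups did not overlap, yet the log2 fold change of 0.44 (SE 0.14) was within the bound of 0.5, and the gene was not past the thresholds in any of the 6 fits without 1 library. The ratio of *LOX* to *LOXL2* reads was 1.06, 1.02 and 0.997 in the 3 controls and 4.18, 4.84 and 2.97 in the ASO_LINC libraries. Every ASO_LINC ratio lay above every control ratio, with the lowest of them in replicate 3.

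**Figure D2:**
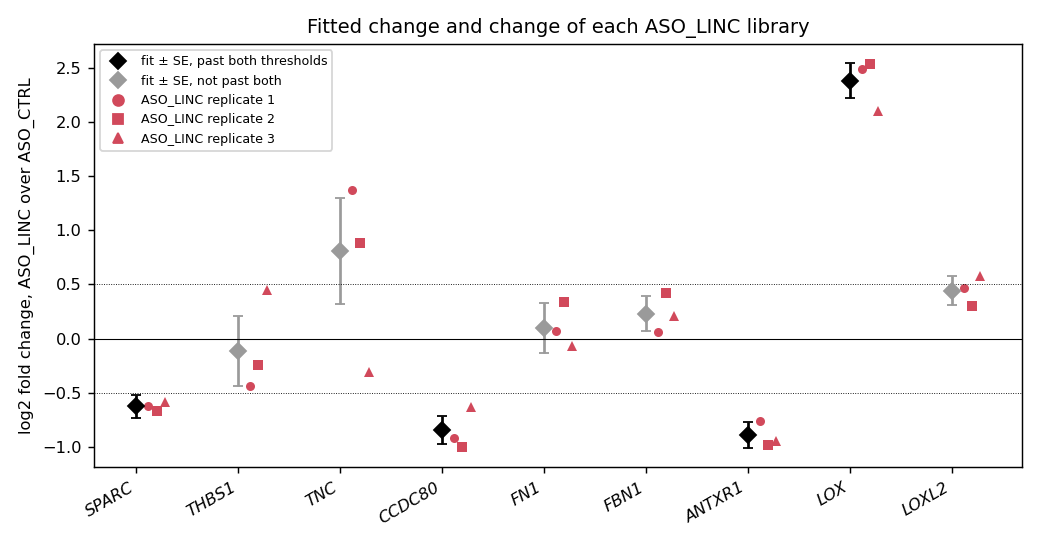
Log2 fold change of ASO_LINC over ASO_CTRL for each member, as the fitted value with its standard error (diamonds, black where past both thresholds) and as log2 CPM of each ASO_LINC library minus the control mean (red). *LOX* stands at 2.38, *SPARC*, *CCDC80* and *ANTXR1* lie between −0.63 and −0.89, and the dotted lines mark the bound of 0.5.

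Levels of different genes were compared per kilobase of annotated exon (CPM per kb). In ASO_CTRL *SPARC* had the highest level, 802 ± 43.9 CPM per kb (SD, n = 3), followed by *CCDC80* at 153 ± 13.6. *LOX* and *LOXL2*, at 47.7 ± 7.03 and 43.4 ± 5.45 CPM per kb, overlapped and could not be ordered, and neither could *THBS1* and *TNC* at the bottom, at 0.319 ± 0.055 and 0.246 ± 0.164. *ANTXR1* at 15.9, *FBN1* at 1.51 and *FN1* at 0.591 CPM per kb stood between them, each without overlap with its neighbours. In ASO_LINC *LOX*, at 248 ± 38.8 CPM per kb, stood second, above *CCDC80* at 85.3 ± 11.8 and below *SPARC* at 520 ± 16.4, and the neighbours that overlapped were *FN1*, *TNC* and *THBS1*. The summed CPM of the 9 members ranged from 6196 to 6957 in ASO_CTRL and from 5391 to 5533 in ASO_LINC. *SPARC* gave 56.6% of their summed mean CPM in ASO_CTRL and 44.1% in ASO_LINC, whereas *LOX* went from 4.06% to 25.4%. The exon lengths come from an annotation that need not be the one used for counting, and cDNA primed with oligo-dT can favour the 3′ end of long transcripts.

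Genes of the same pathway were then taken from 5 lists written by hand, collagen chains left out. Of their 102 genes, 65 were listed in the table and 55 were tested, of which 9 were past both thresholds, 5 higher and 4 lower (16.4%, beside 7.54% of all genes tested). The lists were written with earlier results of these data known, so nothing is read from this share. Values of the list genes are given as a description. With edgeR's glmTreat, which tests for a change beyond the bound, 4 were called, all of them higher and 0 lower. Of all 14660 tested genes it called 384, 277 higher and 107 lower. The median log2 fold change of these 55 genes was 0.05, and that of all genes was −0.003. The adjusted p-values given below are from edgeR's quasi-likelihood test over all tested genes.

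In the list of the SPARC family and other matricellular genes, 9 of 23 were tested, 1 was past the thresholds and the median log2 fold change was 0.07. That gene was *FSTL1*, which encodes a secreted glycoprotein of the SPARC family and fell from 631, 626 and 603 CPM to 432, 431 and 322 CPM. Its log2 fold change was −0.65 (SE 0.14, adjusted p = 0.00947), and the adjusted p was near the threshold. Of the 6 leave-one-out fits, *FSTL1* was called only in that without ASO_LINC replicate 3 (adjusted p = 0.00201), and the others reached up to 0.0403. It was also lost with library size alone as scaling (0.0108), without the filter (0.0101) and with at least 10 counts in every library (0.0103). *CYR61*, the gene of a secreted CCN protein, at 1872 ± 94.96 CPM in ASO_CTRL and 2512 ± 319 CPM in ASO_LINC (SD, n = 3 each), had a log2 fold change of 0.42 (edgeR adjusted p = 0.0392) and among the leave-one-out fits was called only without ASO_LINC replicate 3 (0.52). *THBS2*, a paralog of *THBS1*, was measured at 271 ± 7.24 and 304 ± 16.8 CPM, a log2 fold change of 0.16 (edgeR adjusted p = 0.352), although its libraries did not overlap.

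Of the microfibril and elastic fibre genes 9 of 19 were tested, with a median of −0.14, and 2 were past the thresholds, both lower. *EFEMP1*, a fibulin gene, fell from 489, 537 and 528 CPM to 349, 291 and 272 CPM, a log2 fold change of −0.77 (SE 0.13, edgeR adjusted p = 0.00317). *MFAP5*, which encodes a microfibril-associated glycoprotein, fell from 143, 154 and 157 CPM to 95.4, 96.7 and 78.6 CPM, a log2 fold change of −0.74 (SE 0.13, edgeR adjusted p = 0.00402). Neither gene's conditions overlapped. *EFEMP1* was past the thresholds in 3 of the 6 leave-one-out fits and not without ASO_CTRL replicate 2 or 3 or ASO_LINC replicate 2 (adjusted p up to 0.0221), and *MFAP5* in 1, that without ASO_LINC replicate 3 (up to 0.0289 in the others). *FBN2*, the paralog of *FBN1*, stood at 26.2 ± 1.91 and 17.9 ± 0.39 CPM (SD, n = 3 each), a log2 fold change of −0.54 (edgeR adjusted p = 0.0305), while *FBN1* itself was at 0.23.

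Of the collagen modification and cross-linking enzymes 16 of 20 were tested, and 3 were past the thresholds, all higher, although the median of the list was −0.17. *P4HA2* and *P4HA1*, which encode catalytic subunits of collagen prolyl hydroxylase, rose from 69.9 ± 3.21 to 199 ± 6.32 CPM and from 31.1 ± 1.53 to 80.9 ± 21.6 CPM (SD, n = 3 each). Their log2 fold changes were 1.51 (SE 0.12, edgeR adjusted p = 3.30e-05) and 1.39 (SE 0.19, edgeR adjusted p = 9.82e-04). *P4HA2* was past the thresholds in all 6 leave-one-out fits, and *P4HA1* in 5, missing it without ASO_CTRL replicate 3 (adjusted p = 0.0104). *PCOLCE2*, whose protein enhances procollagen processing, rose by 2.22 on the log2 scale (SE 0.45, edgeR adjusted p = 0.0077) from only 6, 7 and 5 reads in the controls, and was called in 1 of the 6 leave-one-out fits, that without ASO_LINC replicate 3 (adjusted p up to 0.0533). In the lysyl oxidase family *LOX* was past the thresholds and *LOXL1*, *LOXL2* and *LOXL3* were not. *LOXL4*, with 11, 6 and 15 reads in ASO_CTRL and 1, 2 and 2 reads in ASO_LINC, did not pass the filter on low counts. *LOXL1* was at 137, 152 and 133 CPM in ASO_CTRL and at 68.3, 70.0 and 114 CPM in ASO_LINC, a log2 fold change of −0.75 (SE 0.19, edgeR adjusted p = 0.0235). *LOXL3* was at 11.3, 8.60 and 7.82 CPM in ASO_CTRL and at 4.997, 4.62 and 6.78 CPM in ASO_LINC, a log2 fold change of −0.78 (SE 0.24, edgeR adjusted p = 0.0478). Neither passed the threshold of 0.01, although the libraries of the conditions did not overlap, and *LOXL1* was called in the fit without ASO_LINC replicate 3 (log2 fold change −1.02, edgeR adjusted p = 7.00e-05) and by DESeq2.

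**Figure D3:**
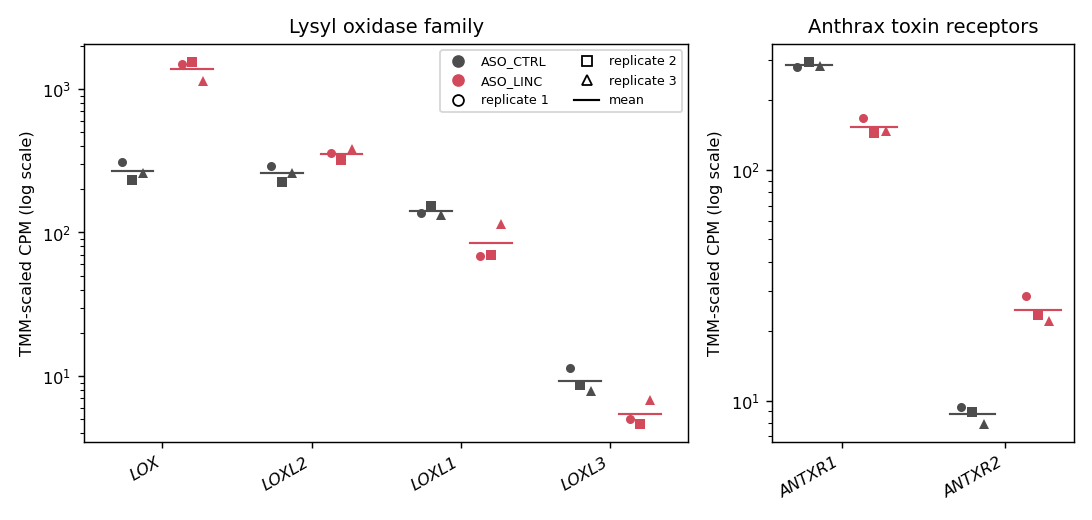
TMM-scaled CPM on log axes of the tested lysyl oxidase genes (left) and of the anthrax toxin receptor genes (right) in each library, with ASO_CTRL in grey, ASO_LINC in red and a bar at each mean. *LOX* goes from a mean of 267 to 1390 CPM while *LOXL1* goes from 140 to 84.2 CPM, and *ANTXR1* and *ANTXR2* lie on opposite sides of their controls.

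The cell-surface partners had 12 of 19 genes tested, a median of 0.46 and 2 genes past the thresholds, both higher. *ITGA5*, the alpha subunit of the classical fibronectin receptor, rose from 31.8, 25.3 and 23.7 CPM to 78.0, 84.0 and 113 CPM, a log2 fold change of 1.76 (SE 0.18, edgeR adjusted p = 1.67e-04). *ANTXR2*, the paralog of *ANTXR1*, rose from 9.43, 8.95 and 7.92 CPM to 28.4, 23.4 and 22.2 CPM, a log2 fold change of 1.51 (SE 0.18, edgeR adjusted p = 3.65e-04). Both genes were past the thresholds in all 6 leave-one-out fits. In every ASO_LINC library *ANTXR1* was thus below and *ANTXR2* above all controls. *SDC4*, a syndecan that binds fibronectin, was at 249 ± 29.8 and 373 ± 65.9 CPM, and *ANXA2* at 4162 ± 46.6 and 5750 ± 439 CPM (SD, n = 3 each), with edgeR adjusted p-values of 0.0247 and 0.0143. *ANXA2* was called in the fit without ASO_LINC replicate 3 (log2 fold change 0.53), and *SDC4* was called by DESeq2.

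Basement membrane linkers and proteoglycans had 9 of 21 genes tested, a median of −0.31 and 1 gene past the thresholds. It was *VTN*, the vitronectin gene, which fell from 5.48 ± 1.10 to 2.24 ± 0.19 CPM (SD, n = 3 each), a log2 fold change of −1.29 (SE 0.28, edgeR adjusted p = 0.00991). This call was marginal: it was lost with DESeq2's size factors, with library size alone, without the filter, with DESeq2 and with limma-voom (adjusted p up to 0.0129), and among the leave-one-out fits it was made only without ASO_LINC replicate 3 (adjusted p up to 0.0541). The count of *VTN* is uncertain, since 17.3% of its annotated exon bases are shared with another gene and the strand setting is unknown. *HSPG2*, which encodes perlecan, was at 264, 199.96 and 214 CPM in ASO_CTRL and at 126, 53.7 and 175 CPM in ASO_LINC, a log2 fold change of −0.94 (SE 0.32, edgeR adjusted p = 0.0663), and was called in the fit without ASO_LINC replicate 3 (−1.33, edgeR adjusted p = 0.00332). In the same list *ECM1* and *SRPX* went the other way, with log2 fold changes of 1.11 and 0.97 (edgeR adjusted p = 0.0303 and 0.0359). Neither was called, although their libraries did not overlap, and *ECM1* had only 7 to 20 reads per library. Among the members, the shared exon bases were at most 7.58%, for *THBS1*.

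**Figure D4:**
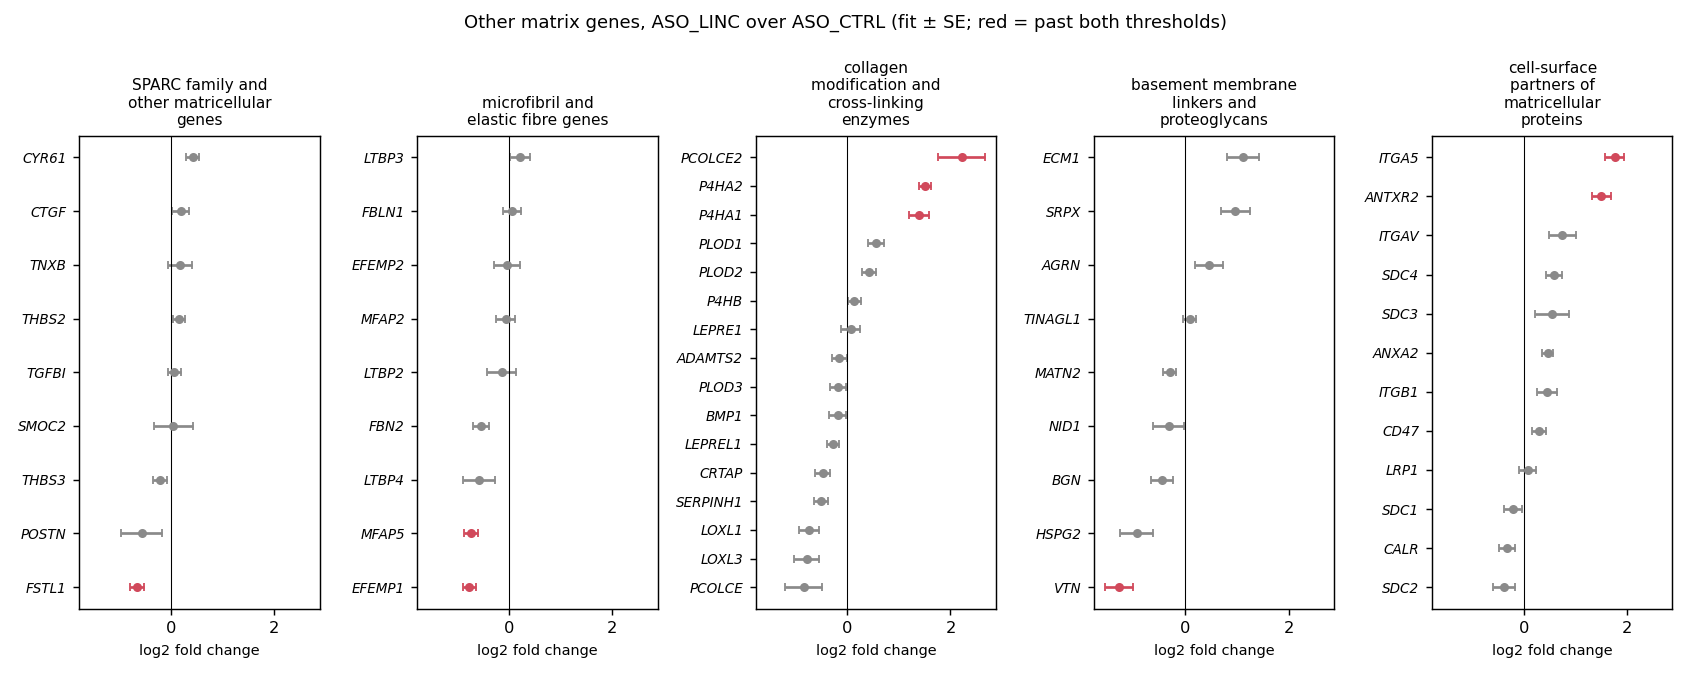
Log2 fold change of ASO_LINC over ASO_CTRL with its standard error for the 55 tested genes of the 5 matrix lists, ordered within each list, with genes past both thresholds in red. The 5 red genes on the right of 0 are *PCOLCE2*, *P4HA2*, *P4HA1*, *ITGA5* and *ANTXR2*, and the 4 on the left are *FSTL1*, *MFAP5*, *EFEMP1* and *VTN*.

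The genes most like *SPARC* across the 6 libraries were found by Pearson correlation of log2 CPM among 3522 genes with a mean of at least 50 CPM. The highest were *CCL2* (r = 0.9995), a chemokine gene at 221 ± 26.7 CPM in ASO_CTRL and 85.2 ± 6.86 CPM in ASO_LINC, *MTCH2* (0.9987), *ALPK2* (0.998) and *TCTN3* (0.994). *CCL2* and *ALPK2* were past both thresholds and lower, with log2 fold changes of −1.38 and −0.94, as was *TCTN3* at −0.61, whereas *MTCH2*, at −0.27, was not. The lowest were *SMS* (−0.998), *FHL1* (−0.997), *RGS4* (−0.997) and *ATXN2L* (−0.997), of which *RGS4* had the largest log2 fold change, 2.05. The 6 libraries form 2 groups, so these values carry the difference between the conditions and are given as a description.

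**Figure D5:**
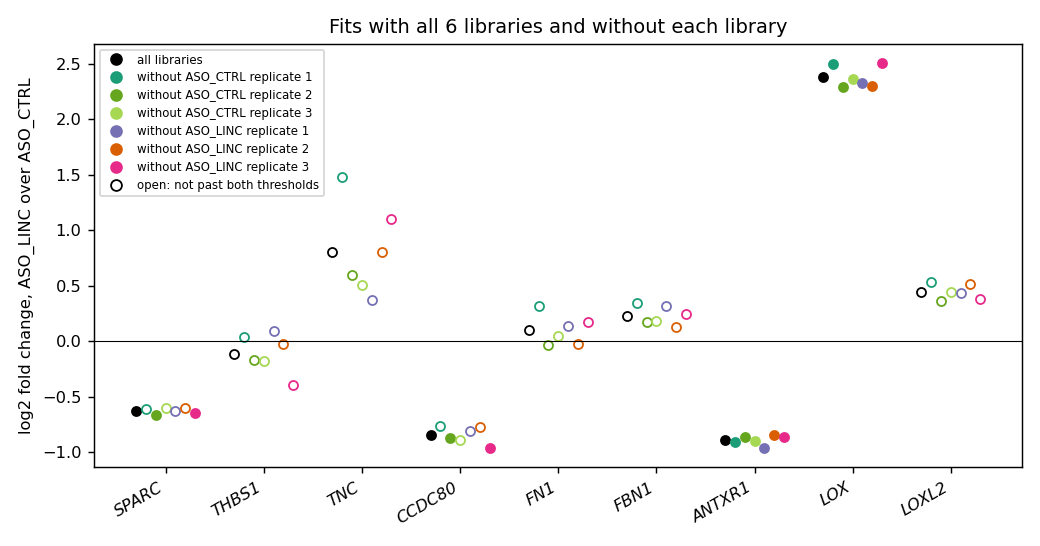
Fitted log2 fold change of each member with all 6 libraries (black) and with each library left out in turn (colours), filled where past both thresholds and open where not. *LOX* and *ANTXR1* are filled in every fit, *SPARC* and *CCDC80* are open in 4 of the 6, and *THBS1* and *FN1* lie on both sides of 0.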

How the data were processed

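Single reads from oligo-dT-primed cDNA were aligned to hg19 with STAR by the authors, who deposited raw counts per gene name and library. Which program and annotation produced these counts, and whether strand was used, is not given in the sources used here. Rows holding the 4 totals of reads assigned to no gene made up 24.8% to 28.1% of each library and were left out. Groups and replicate numbers came from the sample titles. Counts were analysed in R 4.3.3 with edgeR 4.0.16: genes kept by filterByExpr, TMM scaling and the quasi-likelihood F-test without a block, with Benjamini-Hochberg adjustment over 14660 genes. Log2 CPM of single libraries used a prior count of 2. Replicates within each condition were farther apart than sampling noise (chi-square per degree of freedom from 2.63 to 15.6). The 2.63 was that of ASO_LINC replicates 1 and 2, and every other pair was at 7.45 or more. Each library was counted as 1 replicate, although this spread does not show that the libraries were separate cultures. The test was checked on simulated data, where 1 of 14230 unchanged genes was called. Of genes with a simulated log2 change of −1 or 1, it called 25 of 47 and 28 of 50. At −2 and 2 it called 43 of 47 and 50 of 50. Changes near 1 log2 unit can thus be missed. Positions, exon lengths and overlaps came from a GENCODE annotation on GRCh37, the sequence of hg19, and promoter windows from RefSeq on GRCh38.p14.

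The members and lists were chosen with earlier results of these data known. Besides the members, the text names in each list the called genes with the 4 smallest p-values and a mean of at least 10 counts, and the 4 genes most and least like *SPARC*. *CYR61*, *THBS2*, *FBN2*, *LOXL1*, *LOXL3*, *LOXL4*, *SDC4*, *ANXA2*, *HSPG2*, *ECM1* and *SRPX* were named after their values were seen. Alternatives were other scalings and filters, DESeq2 1.42.0, limma-voom (limma 3.58.1), robust dispersion, other thresholds, a replicate block and leaving out each library.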

Additional observations from a re-analysis of the deposited data

How the results depend on the processing

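Under the other scalings and filters, DESeq2, limma-voom, robust dispersion and an adjusted p-value of 0.05, the 4 members past the thresholds were the same genes. Under these settings other than the adjusted p-value of 0.05, the list genes called were 6 to 10, with *VTN* called only under upper quartile scaling and robust dispersion, *FSTL1* lost in 3, *VTN* and *PCOLCE2* not tested with at least 10 counts in every library, and *LOXL1* and *SDC4* gained with DESeq2. With edgeR's glmTreat, which tests for a log2 fold change beyond 0.5, 1 member (*LOX*), 4 list genes, 0 of them lower, and 384 of all tested genes passed, in place of 4, 9 and 1106. At an adjusted p-value of 0.05 there were 17 list genes and 2465 of all genes. With the replicate number as a block, 3 members (not *SPARC*), 5 list genes, 0 of them lower, and 656 of all genes were called. Whether same-numbered libraries were paired is not known. Their deviations from the condition mean correlated at 0.075, −0.259 and −0.304, and not every library correlated best with its own number. With only 3 libraries per condition, this check cannot exclude a pairing. Fits that left out 1 library called from 2 to 4 members, from 3 list genes (without ASO_CTRL replicate 3) to 16 (without ASO_LINC replicate 3) and from 359 to 2616 of all genes. The 2616 were called without ASO_LINC replicate 3, a fit whose ASO_LINC libraries, replicates 1 and 2, were the closest pair within a condition. In the leave-one-out fits the log2 fold change of *THBS1* ranged from −0.39 to 0.09 and that of *FN1* from −0.03 to 0.31. It turned sign for *THBS1* without ASO_CTRL replicate 1 (0.036) or ASO_LINC replicate 1 (0.092) and for *FN1* without ASO_CTRL replicate 2 (−0.032) or ASO_LINC replicate 2 (−0.026). The cause of these shifts was not tested, beyond the smaller number of libraries. The log2 fold changes were also compared under the alternatives other than glmTreat and the adjusted p-value of 0.05. Of those of the members, 121 kept their direction and side of the thresholds, 9 lost the call and 4 reversed. Of those of the named list genes, 97 kept both and 36 lost the call. The calls that glmTreat lost, given above, are not in these counts. Scaling moved the median log2 fold change of all genes to between −0.023 and 0.014. Depth limits *THBS1* and *TNC*, with 6 to 40 reads per library, and *TNC* was not tested with at least 10 counts required in every library.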
